A study of Zea mays with 24 samples.

Results

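NAKED ENDOSPERM1 (nkd1, Zm00001d002654) and NAKED ENDOSPERM2 (nkd2, Zm00001d026113) are 2 of the 39510 gene identifiers measured by RNA sequencing in the maize (Zea mays) root tip. They were chosen by name, as transcription factors that act with SCARECROW (SCR) in patterning of the ground tissue, and both were followed through all 24 libraries, 3 in each of 8 groups. Plants were 7 days after germination. Endodermis cells were sorted by flow cytometry from protoplasts of a ZmSCR::RFP reporter line and quiescent center cells from a ZmWOX5::RFP reporter line, both in B73/Hi-II. Cortex, epidermis and stele were sorted from wild-type B73 protoplasts stained with fluorescent dyes. Dissected root cap, unsorted protoplasts without cap and intact root tips without cap were all wild-type B73. For the 2 reporter-sorted tissues, endodermis and quiescent center, the tissue therefore cannot be told apart from sorting method, reporter line and genetic background. SCR, WOX5 and other tissue markers carry no name in the deposited table and were not analysed here, so the tissue labels were taken as given.

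INDETERMINATE DOMAIN proteins are plant-specific zinc finger transcription factors. In Arabidopsis several of them bind SHORT-ROOT and SCR, limit the movement of SHORT-ROOT out of the endodermis and set the identity of the layers that arise from the ground tissue. In maize nkd1 and nkd2 are duplicate genes best known from the endosperm, where loss of both disturbs the number and identity of the outer aleurone cells. The ground tissue of the root is the cortex with its innermost layer, the endodermis.

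Both genes had their highest mean in intact root tips, although nkd2 there overlapped unsorted protoplasts. Both were at or near 0 in reporter-sorted endodermis. They parted in the quiescent center and the root cap, where nkd1 was read in most libraries and nkd2 in none. Values are normalized values, which are read counts per gene divided by a size factor per library. One read was worth 0.604 to 1.49 such units, and libraries held 21978670 to 50289026 recovered reads. A listed 0 allows for up to 3 reads in that library, or 1.81 to 4.46 units across libraries, as far as counting error alone goes. Whether replicates came from separate plants is not stated, so all p-values measure the spread between these libraries, which may be technical. In such bulk samples fewer cells of a type and less RNA per cell cannot be told apart.

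For nkd1 the endodermis libraries held 9.22, 0 and 6.44 normalized units, which rested on 22 reads in all. Cortex libraries held 182, 60.0 and 63.5 units, and every endodermis library lay below every cortex library, as for 17.5% of the 25555 tested genes. Epidermis libraries spread widely, at 0, 40.4 and 8.17 units. The stele was even, at 38.2, 49.2 and 58.8 units, below every cortex library, as for 14.9% of tested genes. This separation was narrow, with 58.8 units from 63 reads in stele replicate 3 and 60.0 units from 60 reads in cortex replicate 2. Unsorted protoplasts held 115, 128 and 188 units, a narrow range that overlapped the cortex. Intact tips held 637, 1207 and 1139 units, from 641 to 1326 reads. All 3 intact tip libraries lay above each of the other 21 libraries, of which the highest, in the quiescent center, reached 548. This held for 2.23% of tested genes.

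The quiescent center and the root cap were split for nkd1. The quiescent center libraries held 0, 548 and 456 units, from 0, 802 and 465 reads, and the root cap libraries held 200.3, 61.0 and 0 units. Few genes were at 0 in one of these libraries and, in its replicates, at or above the lowest nkd1 value above 0 of the group. That value was not high in the root cap, where nkd1 at 61.0 units in replicate 2 ranked at percentile 29.4 of tested genes. Of 7314 tested genes at 456 or more in quiescent center replicates 2 and 3, 48 (0.656%) were listed at 0 in replicate 1. The same count was 0.179% for replicate 2 and 0.481% for replicate 3. In the root cap, 0.862% of 16824 genes at 61.0 or more in replicates 1 and 2 were at 0 in replicate 3. The same share was 0.048% for replicate 1 and 1.79% for replicate 2, in which nkd1 was read. Quiescent center libraries were also the least alike as a group, with a mean Spearman correlation across tested genes of 0.815, against 0.917 to 0.962 in the other 7 groups. The part of this difference between replicates in the nkd1 values was not tested.

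For nkd2 the endodermis held 3.54, 0 and 0 normalized units, 5 reads in all. Cortex libraries held 62.8, 25.0 and 68.9 units. Epidermis libraries were all below the cortex, at 0.918, 20.2 and 19.4 units, the first of which was 1 read, and 12.6% of tested genes separated in this way. Stele libraries held 61.1, 57.7 and 54.2 units, inside the range of the cortex. Unsorted protoplasts held 91.6, 106 and 224 units, and intact tips held 106, 245 and 158 units. These last groups overlapped each other, and their 6 libraries lay above the other 18, of which the highest reached 68.9. That held for 0.423% of tested genes.

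No nkd2 read was recovered from any quiescent center or root cap library. Of the tested genes, 10.1% were at 0 in all 3 quiescent center libraries and 2.40% in all 6 quiescent center and root cap libraries. By sorting method, nkd2 was at 0 in 5 of 6 reporter-sorted libraries and in 0 of 9 dye-sorted ones, while 0.697% of tested genes were at 0 in at least 5 of the reporter-sorted libraries and in none of the dye-sorted ones. Among the dye-sorted libraries, epidermis replicate 1 held 1 nkd2 read, within the 3 reads that a listed 0 allows for. The count of 0 of 9 therefore rests on 1 read there. For nkd1 the libraries at 0 were 2 of 6 reporter-sorted and 1 of 9 dye-sorted.

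Relative to all tested genes of the same library, nkd1 ranked at percentiles 4.30 to 13.6 in the endodermis, 41.4 to 49.8 in unsorted protoplasts and 72.9 to 82.6 in intact tips. In the quiescent center it ranked at 67.2 and 64.0 in replicates 2 and 3. The rank of nkd2 was 3.40 to 7.85 in the endodermis, 30.8 to 31.8 in the stele, 38.2 to 52.9 in unsorted protoplasts and 42.1 to 56.1 in intact tips. A gene's length enters these ranks, so they do not order the genes against each other. They order one gene between libraries only where it is well read, because genes at 0 in a library share 1 rank. With no read, nkd2 ranked at 9.48 to 11.7 in the quiescent center, above its 7.85 with 5 reads in endodermis replicate 1. The lowest endodermis ranks, 4.30 and 3.40, also belong to libraries at 0.

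The endodermis was compared with the other 4 sorted tissues because nkd genes act with SCR, which marks this layer. Calls required a limma adjusted p (Benjamini-Hochberg, over 25555 genes) under 0.05 together with a change of 1 or more on the log2 scale in either direction. Changes were computed from log2(value + 1), so the added 1 limits the size of those against groups at or near 0. A library at 0 beside higher replicates lowers the mean log2 level of its group and can enlarge a change. nkd2 averaged 1.18 ± 2.05 units in the endodermis (SD, n = 3) and fell by 2.95 on the log2 scale (SE 0.68, limma adjusted p = 0.0036), a comparison in which 16.5% of tested genes were called. edgeR on recovered reads gave −2.69, which was not called (edgeR adjusted p = 1.00), while DESeq2 gave −2.92 (DESeq2 adjusted p = 0.018). The other 4 tissues include the quiescent center, where no nkd2 read was recovered, and it enters all of these values. Without the quiescent center the nkd2 difference was −4.18 (limma adjusted p = 2.57e-04). Whether the group at 0 accounts for the edgeR result was not tested. nkd1 averaged 5.22 ± 4.73 units in the endodermis (SD, n = 3). Its difference of −3.15 (SE 1.56) was not called (limma adjusted p = 0.178), but it was under DESeq2 (−3.79, adjusted p = 0.014), under quantile normalization (−3.88, limma adjusted p = 0.036) and without quiescent center replicate 1 (−3.90, limma adjusted p = 0.022).

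Between the layers of the ground tissue, nkd2 was lower in endodermis than in cortex, where it averaged 1.18 ± 2.05 and 52.2 ± 23.8 units (SD, n = 3 each). The log2 fold change was −4.88 (SE 0.85, limma adjusted p = 4.94e-04), with 12.7% of tested genes called. nkd1 averaged 5.22 ± 4.73 units in the endodermis and 101.8 ± 69.5 units in the cortex (SD, n = 3 each). Its log2 fold change of −4.40 (SE 1.98) was not called in the fit over all groups (limma adjusted p = 0.169). It was called when endodermis and cortex were fitted alone (limma adjusted p = 0.026, with 15.5% of genes called), without the quiescent center (limma adjusted p = 0.049), under quantile normalization (−5.13, limma adjusted p = 0.036) and under DESeq2 (−4.29, adjusted p = 0.041). The within-group SD of nkd1, pooled over the 8 groups, was 2.62 log2 units and larger than that of 99.2% of tested genes, beside a median of 0.94 over genes. For nkd2 it was 0.93. The pooled spread of nkd1 includes the 4 libraries with nkd1 at 0. That of nkd2 includes the quiescent center and the root cap, where all libraries were at 0 and the SD was 0. In the epidermis the SD of nkd2 was 1.99 log2 units. With weights per group the SE of nkd1 was 1.11 for epidermis and 2.45 for quiescent center against the other 4 tissues, beside 1.56 for both in the unweighted fit.

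In the quiescent center nkd2 was absent from all libraries and nkd1 from 1. nkd2 was at least 20.4-fold below the geometric mean of the cortex and at least 24.6-fold below that of the stele, with 3 reads per library as the floor. Against the other 4 sorted tissues it fell (limma adjusted p = 1.13e-04), in a comparison where 44.6% of tested genes were called and the median tested gene changed by −0.49 on the log2 scale. With weights per group the call was lost (limma adjusted p = 0.072). nkd1 averaged 335 ± 293 units in the quiescent center (SD, n = 3) and differed from the other 4 tissues by 1.72 (SE 1.56, limma adjusted p = 0.374), which was not called. Without quiescent center replicate 1, the library at 0, the difference was 4.71 (limma adjusted p = 0.0099, with 40.3% of genes called). It was 0.16 without replicate 2 (limma adjusted p = 0.952) and 0.29 without replicate 3 (limma adjusted p = 0.907). On all recovered reads edgeR gave 3.59 (edgeR adjusted p = 0.0086, with 41.0% of genes called) and DESeq2 gave 3.72 (DESeq2 adjusted p = 0.0061, with 44.2% called).

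Among the dye-sorted tissues nkd2 was higher in stele and cortex than in epidermis by mean level. Stele averaged 57.7 ± 3.48 units of nkd2 (SD, n = 3) and was higher than the other 4 sorted tissues by 3.48 on the log2 scale (SE 0.68, limma adjusted p = 0.0025), with 8.10% of tested genes called. Cortex was higher by 3.15 (SE 0.68, limma adjusted p = 0.0051), with 8.28% called. The other 4 tissues of these comparisons include the quiescent center, at 0, and the endodermis, near it. Against the remaining tissues without the quiescent center, the stele difference was 2.68 (limma adjusted p = 0.021) and the cortex difference 2.33, no longer called (limma adjusted p = 0.056). Without cortex replicate 1 the cortex call was also lost, at 2.96 (limma adjusted p = 0.056). Epidermis averaged 13.5 ± 10.9 units (SD, n = 3) and its nkd2 difference of 0.18 (SE 0.68) was not called (limma adjusted p = 0.904), in a comparison with 13.5% of genes called. For nkd1 the differences of cortex (2.35), stele (1.26) and epidermis (−2.18) from the other 4 tissues, each with an SE of 1.56, were not called (limma adjusted p = 0.393, 0.695 and 0.414). Cortex against stele, at 0.87 for nkd1 (SE 1.98), was not called either (limma adjusted p = 0.913).

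**Figure D1:**
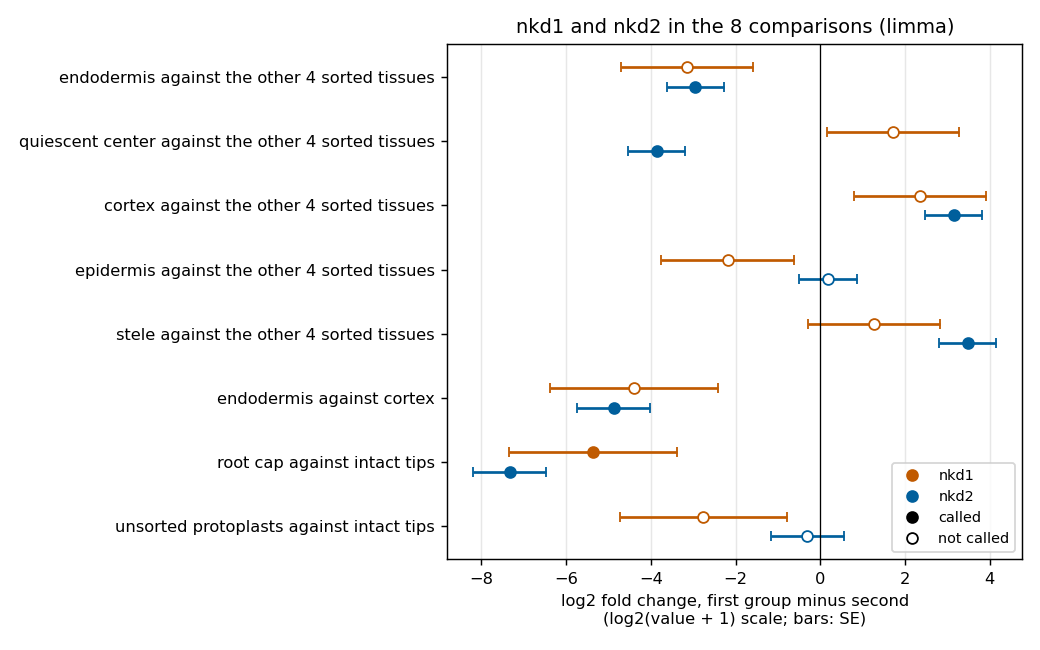
Log2 fold change of nkd1 and nkd2 (first group minus second, on the log2(value + 1) scale) with its SE as bars in 8 comparisons fitted with limma over all 24 libraries; filled points were called and open points were not. nkd2 is called in 6 of the 8 comparisons, and nkd1, with SEs of 1.56 to 1.98, in 1.

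Making protoplasts was compared with leaving the tip intact, both without cap. nkd1 averaged 144 ± 39.1 units in unsorted protoplasts and 994 ± 311 units in intact tips (SD, n = 3 each), and every protoplast library lay below every intact tip library, as for 21.0% of tested genes. Its log2 fold change was −2.76 (SE 1.98) and was not called in the fit over all groups (limma adjusted p = 0.366), where 17.9% of tested genes were called. With protoplasts and intact tips fitted alone the same change was called (limma adjusted p = 0.0025, with 21.3% of genes called). edgeR and DESeq2 over all groups did not call it (adjusted p = 0.249 and 0.192). nkd2 averaged 140 ± 72.6 units in unsorted protoplasts and 169.8 ± 70.2 units in intact tips (SD, n = 3 each), a change of −0.31 (SE 0.85, limma adjusted p = 0.860) with overlapping groups.

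The balance of the genes was also compared between these preparations. The log2 ratio of nkd1 to nkd2 was computed from values + 1. Where both genes are well read, as in these 6 libraries, a length factor nearly cancels between groups. The ratio was 0.32, 0.27 and −0.25 in unsorted protoplasts, against 2.57, 2.29 and 2.84 in intact tips. The ranges did not overlap, and the means differed by −2.45. An exact two-sided permutation test gave p = 0.1, the smallest that 3 libraries against 3 can give, in a comparison added after the values were seen. The share of other gene pairs with ratios that separate in this way was not computed. nkd1 alone was lower in every protoplast library than in every intact tip library, as for 21.0% of tested genes. Among sorted tissues the ratio was tested for each against the other 4, with exact two-sided permutation tests of 3 libraries against 12 and p-values adjusted over the 5 tissues. In libraries where a gene is at 0 the added 1 sets the value, so no measured ratio exists there. This holds for all 3 quiescent center libraries, for endodermis replicates 2 and 3 and for epidermis replicate 1. The quiescent center values of 0, 9.10 and 8.83 are therefore nkd1 over the added 1, with neither gene read in the first library. Their mean was above that of the other 4 tissues by 5.58, by 3.55 with 10 added in place of 1, and by 4.02 to 8.57 with each library left out. The difference did not pass (exact permutation p = 0.035, adjusted p = 0.176), and nothing about a ratio in the quiescent center is read from it. The other adjusted p-values were 0.308 for epidermis, 0.337 for stele and 0.998 for cortex and endodermis (exact permutation tests).

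Root cap, the tissue dissected off the tip, was set against intact tips without it. nkd2 had no read in the 3 root cap libraries and lay at least 46.5-fold below intact tips, with 3 reads per library as the floor (limma adjusted p = 1.76e-06), with 32.6% of tested genes called. nkd1 averaged 87.1 ± 103 units in the root cap and 994 ± 311 units in intact tips (SD, n = 3 each), and every cap library lay below every intact tip library, as for 23.7% of tested genes. It fell by 5.37 on the log2 scale (SE 1.98, limma adjusted p = 0.041). That call was lost without root cap replicate 3, the library at 0 (−3.10, limma adjusted p = 0.257), and without intact tip replicate 1, 2 or 3 (limma adjusted p = 0.072, 0.098 and 0.090). It was also lost without the filter on low values (limma adjusted p = 0.054), with edgeR (−3.61, adjusted p = 0.109) and with DESeq2 (−3.51, adjusted p = 0.058).

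All 28 pairs of groups were fitted to place the levels in order, with p-values adjusted over genes within each pair and not over the pairs. For nkd1 3 of the 28 pairs were called and for nkd2 18. Over all tested genes and all 28 pairs, 150521 of 715540 tests (21.0%) were called. In the 3 pairs of nkd1 the endodermis (−7.82, SE 1.98, limma adjusted p = 0.0059), the epidermis (−7.05, limma adjusted p = 0.015) and the root cap were each lower than intact tips, with 24.6%, 18.8% and 32.6% of tested genes called. The epidermis pair was lost without epidermis replicate 1 (−5.62, limma adjusted p = 0.096) and without intact tip replicate 2 (−6.88, limma adjusted p = 0.051). For nkd2 the endodermis, the quiescent center and the root cap were each lower than the cortex, the epidermis, the stele, the unsorted protoplasts and the intact tips, which makes 15 pairs. The other 3 were the epidermis, lower than stele, unsorted protoplasts and intact tips. Sorted tissues came from protoplasts, while root cap and intact tips did not. In pairs between these, for both genes, tissue cannot be told apart from protoplast making and sorting.

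By mean log2 level nkd1 ran upward from the endodermis through epidermis, root cap, stele, quiescent center, cortex and unsorted protoplasts to intact tips. By arithmetic mean the quiescent center was next to the tips. None of the 7 pairs of neighbours in the order by log2 level was called, with limma adjusted p-values from 0.366 for protoplasts against intact tips to 0.901 for quiescent center against stele. For nkd2 the order upward was quiescent center and root cap, both at 0, then endodermis, epidermis, cortex, stele, unsorted protoplasts and intact tips. No pair of neighbours from the epidermis upward was called (limma adjusted p from 0.202 for cortex against epidermis to 0.943 for cortex against stele). Cortex was above epidermis by 2.38 (SE 0.85), with a limma p of 0.012 before adjustment over genes, so these levels are not shown to be alike. Endodermis was below its neighbour, the epidermis, by −2.50 (SE 0.85, limma adjusted p = 0.039, with 21.3% of genes called). This call was lost without epidermis replicate 2 or 3 (limma adjusted p = 0.186 and 0.178) and without endodermis replicate 2 or 3 (limma adjusted p = 0.150 in each case). Epidermis was below stele in nkd2 by −2.64 (limma adjusted p = 0.0397, with 14.9% of genes called), a call lost without epidermis replicate 1 (−1.49) and without any one of the 3 stele replicates (limma adjusted p from 0.083 to 0.108). Epidermis against root cap was called at 3.23 (limma adjusted p = 0.013) and lost without epidermis replicate 2 or 3 (limma adjusted p = 0.082 and 0.081). Endodermis against quiescent center and against root cap, at 0.73 each, were not called (limma adjusted p = 0.527 and 0.571), and no fold is given for groups at or near the floor.

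**Figure D2:**
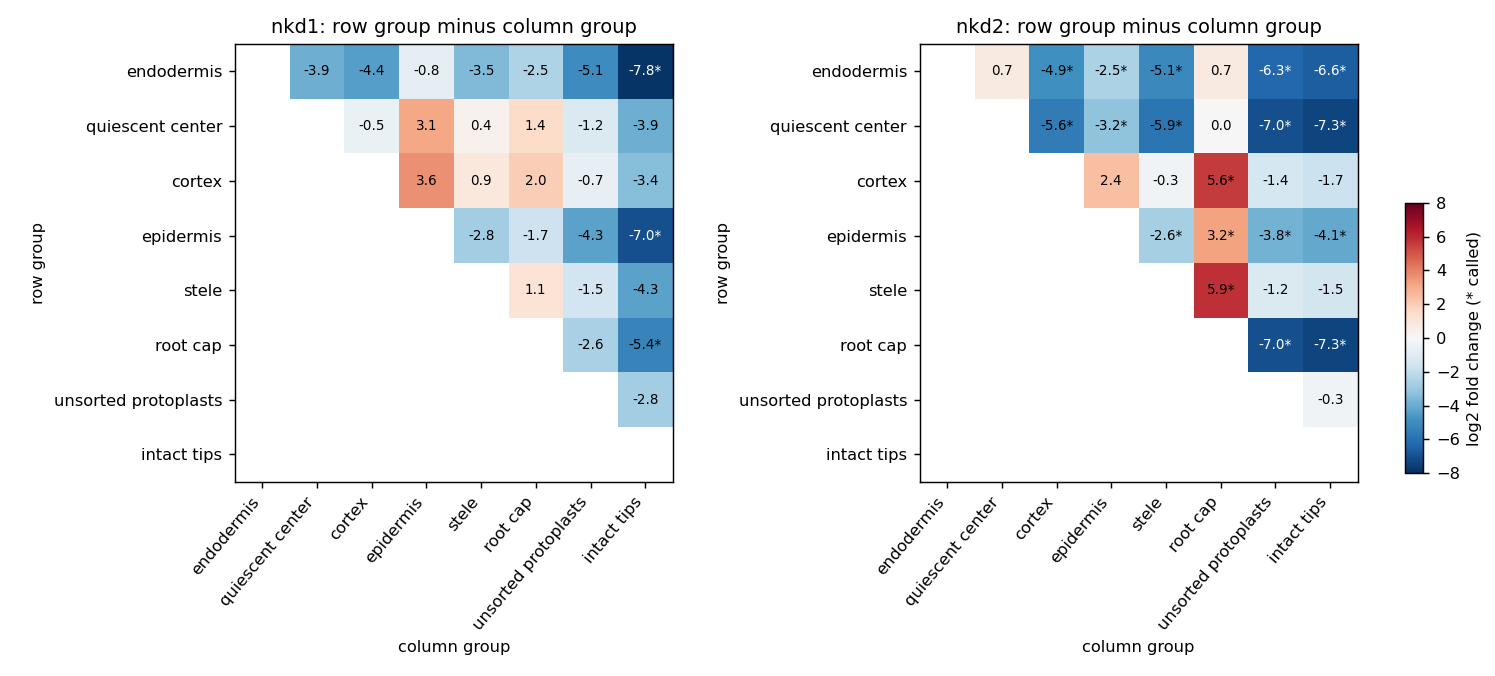
Log2 fold change between each pair of groups for nkd1 (left) and nkd2 (right), row group minus column group, with blue for lower and red for higher in the row group and a star for called pairs. nkd1 has 3 called pairs, all in the intact tip column, and nkd2 has 18.

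Across the 24 libraries the log2 levels of nkd1 and nkd2 had a Pearson correlation of 0.54. It was 0.68 over the 8 group means, 0.36 over the 15 sorted libraries and 0.73 over the 21 libraries without the quiescent center. These are descriptions over points that share a library, a size factor and, within a group, a tissue, and no test was made. Among 23634 genes with a mean of at least 10, nkd2 ranked 417 in likeness to nkd1, and nkd1 ranked 2099 in likeness to nkd2. These ranks were 2655 and 7629 over the 15 sorted libraries, and 145 and 397 without the quiescent center.

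**Figure D3:**
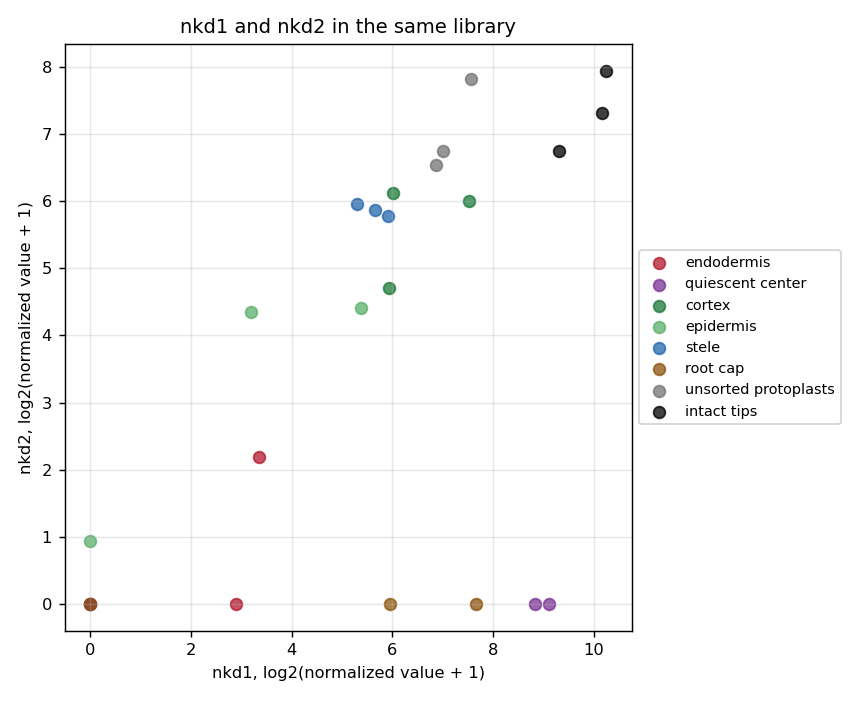
Level of nkd2 against nkd1, both as log2(normalized value + 1), with 1 point per library coloured by group. Intact tips lie at the highest nkd1 levels, and unsorted protoplasts lie at lower nkd1 levels with overlapping nkd2. Points along the bottom right are quiescent center and root cap libraries with nkd1 and no nkd2, and 3 libraries with neither gene coincide at the origin.

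The gene most like nkd1 over the 24 libraries was Zm00001d022390 (Pearson r = 0.90), followed by Zm00001d044008 (r = 0.89). Zm00001d022390 averaged 15.2 ± 17.1 units in the endodermis, 1245 ± 1147 in the quiescent center and 2420 ± 783 in intact tips (SD, n = 3 each). The genes most like nkd2 were Zm00001d048590 and Zm00001d049226 (r = 0.96 each). Both were at 0 in all quiescent center libraries, and they averaged 323 ± 73.0 and 555 ± 118 units in intact tips (SD, n = 3 each). The deposited table gives these identifiers no name.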

How the data were processed

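RNA from 24 maize root samples was sequenced after low-input amplification, per the labels' protocols. Tools named in the submitters' processing notes are Trimmomatic, DESeq2 and kallisto 0.43, while neither the genome build nor the annotation is given in the sources used here. The authors deposited 1 table of normalized values, here taken as a signal: counts per gene scaled by one factor for each library. Its 8 columns of group averages were not used. All positive values (100.0%) came to a whole number of reads within 0.01, so read numbers could be recovered. In 4 libraries 1 read was worth close to 1 unit, where this test is weak. kallisto estimates counts, so any reads shared between the duplicates nkd1 and nkd2 are uncertain.

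Genes with a value of at least 10 in at least 3 libraries were tested (25555, both members among them). limma 3.58.1 in R 4.3.3 was fitted to log2(value + 1), with 1 mean for each group, all 24 libraries and a trended prior. Its test on simulated data gave every gene the same dispersion. That test does not cover a spread as wide as that of nkd1. Alternatives were pseudocount 10, no filter, quantile normalization, weights per group, a replicate block, the compared groups alone, no quiescent center, each library left out, and edgeR 4.0.16 and DESeq2 1.42.0 on recovered reads. None of 31 listed pathway symbols could be paired with an identifier of the table (0 of 39510 matched the RefSeq table), so those genes were not analysed here. The members, lists and tests were chosen with earlier results of these data known. The other genes named are those with the highest correlation with each member.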

Additional observations from a re-analysis of the deposited data

How the results depend on the processing

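Of 328 recomputed values for nkd1 and nkd2 in the 8 comparisons, 301 kept direction and side of the threshold, 11 lost a call, 11 gained one and 5 changed sign. Beyond fewer samples or groups in a fit, no cause was tested. nkd1 in the endodermis against the other 4 sorted tissues gained a call with quantile normalization (−3.88) and DESeq2 (−3.79), and ranged from −3.90 to −2.11 with each library left out. nkd1 in the quiescent center gained one with edgeR (3.59) and DESeq2 (3.72), and ranged from 0.16 to 4.71. nkd1 in endodermis against cortex gained one with quantile normalization (−5.13), DESeq2 (−4.29), the compared groups alone and without the quiescent center (both −4.40), and nkd1 in protoplasts against intact tips with these groups alone (−2.76). nkd1 in root cap against intact tips lost its call with no filter (−5.37), edgeR (−3.61) and DESeq2 (−3.51), and ranged from −6.93 to −3.10. nkd2 lost a call in the cortex without the quiescent center (2.33; 2.86 to 3.60 with each library left out), in the endodermis with edgeR (−2.69) and in the quiescent center with weights per group (−3.86). The uncalled nkd2 difference of the epidermis changed sign with pseudocount 10 (−0.27), with quantile normalization (−0.21) and in the fit with no quiescent center (−0.84), was larger with edgeR (1.61) and DESeq2 (1.51), not called in either, and ranged from −0.41 to 1.33. The uncalled ratio difference of the endodermis ranged from −0.97 to 0.49.

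Of 421 values for other pairs, 379 kept direction and side, 27 lost a call and 15 changed sign, all 15 uncalled. These include quiescent center against cortex for nkd1 with pseudocount 10 (0.46), edgeR (1.62) and DESeq2 (1.72), and in leave-one-out fits, which gave −2.07 to 2.48. Leave-one-out fits gave −2.20 to 0.48 for nkd1 in endodermis against epidermis, −1.20 to 3.35 in quiescent center against stele and −1.19 to 2.64 in stele against root cap. For nkd2 in cortex against stele they gave −0.52 to 0.19. Signs also changed for stele against root cap for nkd1 with edgeR (−0.79) and DESeq2 (−0.84), and for nkd2 in endodermis against quiescent center (−0.97) and root cap (−0.076) with quantile normalization. Of calls lost for nkd2, quiescent center against epidermis was lost with pseudocount 10 (−1.09), quantile normalization (−1.68) and weights per group, and endodermis against stele with edgeR (−5.49). Epidermis against stele was also lost with no filter and with the compared groups alone (both −2.64), edgeR (−2.04) and DESeq2 (−2.10). Endodermis against epidermis was also lost with pseudocount 10 (−0.95), no filter (−2.50) and edgeR (−3.44), and epidermis against unsorted protoplasts with edgeR (−3.31). Quantile normalization gave a median change over tested genes of 0.05 for the quiescent center (−0.49 in the main analysis), −0.06 for stele (0.21), −0.04 for cortex (0.09) and −0.24 for root cap against intact tips (0.06).

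Same-numbered libraries of different groups had a mean correlation of deviations of −0.0025 over 84 pairs, 14 of them over 0.1, so the numbers were not taken to pair samples. With a replicate block 2 of 50 results lost a call, both for nkd2: endodermis against epidermis (−2.50, limma adjusted p = 0.052) and epidermis against stele (−2.64, limma adjusted p = 0.053). The endodermis values rest on 22 reads of nkd1 and 5 of nkd2, so their counting error is large, in libraries of 40707719 to 50289026 reads.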
